A study of Rattus norvegicus with 6 samples.

Results

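Myoepithelial cells form the outer, basal layer of mammary ducts and alveoli and squeeze milk out of the gland by contracting. The genes described here encode 10 proteins of that contraction: the smooth muscle actins Acta2 and Actg2, the myosin heavy chain Myh11, its regulatory light chain Myl9 and light chain kinase Mylk, the actin-binding proteins Tagln, Cnn1, Cald1 and Tpm2, and the oxytocin receptor Oxtr. They were chosen by name, with earlier results of these data known. They account for 10 of the 14217 genes named by a probe set of 1 gene on the array, and for 15 of the 20826 such probe sets. The brightest probe set by its mean over the 6 arrays stood for each gene.

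The samples were mammospheres, floating spheres grown from epithelium-enriched single mammary cells that cannot attach to the dish. One group of 3 arrays, hCG, came from female Sprague Dawley rats injected daily with 100 IU of recombinant human chorionic gonadotropin, a hormone of pregnancy, for 21 days from 55 days of age. The other 3 arrays, Control, came from rats of the same sex, strain and age given buffered saline on the same schedule. Both groups had mammary glands 4 and 5 removed 21 days after the last injection, and both sets of spheres grew for 7 days in EpiCult-B medium with EGF, basic FGF and heparin before RNA was taken. The arrays are numbered 5, 6 and 7 in each group. The spheres, collected with a cell strainer, are mixed cells, and in such bulk RNA fewer cells of a type and less RNA per cell cannot be told apart.

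In contraction, oxytocin binds its receptor and raises calcium, calcium with calmodulin switches on the light chain kinase, and phosphorylated myosin then pulls on actin filaments. The same genes are active in smooth muscle, in pericytes around vessels and in activated fibroblasts, so they mark contractile cells in general and not myoepithelium alone. Many of them are switched on by serum response factor (Srf) and its coactivators of the myocardin family, which bind a motif called the CArG box, a stretch of A and T bases between a CC and a GG.

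Of the 7 contractile genes with an upstream sequence to search, Acta2 alone held close matches to this motif, and its sequence is shown for that reason. The 250 bases before the start of rat Acta2 (RefSeq, build GRCr8, chr1:241172504-241172753, minus strand, 5′ to 3′) read as follows, with the boxes in capitals.
Acta2: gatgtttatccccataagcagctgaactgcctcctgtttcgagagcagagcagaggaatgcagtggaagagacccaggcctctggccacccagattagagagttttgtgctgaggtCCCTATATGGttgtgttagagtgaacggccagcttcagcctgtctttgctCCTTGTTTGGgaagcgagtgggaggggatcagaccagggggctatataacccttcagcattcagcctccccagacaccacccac
The boxes begin 134 and 84 bases before the start, and each has 1 letter of its 6-letter centre that is not A or T. Of 33469 windows of 250 bases before RefSeq starts, 8.08% held at least 1 box with at most 1 such letter, and 0.693% held at least 2. A box with no such letter was found in 1.497% of windows and in 0 of the 8 windows available for 7 of the contractile genes. The motif reads the same on both strands. The window of Acta2 was the only 1 of these 8 with a near match, and no match says only that the letters are not in that window. Windows for Tagln, Myh11 and Myl9 were not used here.

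Across the contractile genes, hCG spheres averaged higher than Control spheres, but 0 of the 8 genes bright enough to test passed limma's moderated test at an adjusted p under 0.05 (Benjamini-Hochberg over 10424 genes). Of all genes, 1.82% passed. The log2 changes (hCG minus Control) of the 8 genes were all above 0, with a median of 0.60, against 0.03 over all tested genes, of which 55.8% were above 0. At an unadjusted p under 0.05, limma passed 4 of the 8 (Acta2, Myh11, Myl9 and Tpm2), against 24.1% of all genes. The 3 hCG arrays lay above the 3 Control arrays in 2 of the 8, Acta2 and Myh11, where 19.3% of all genes did so. In 0 of the 8 they lay below, where 12.3% of all genes did so. The design names 3 animals per group without tying them to the arrays, so the p-values reflect only how far these samples differ within a group, and that spread may be technical.

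**Figure D1:**
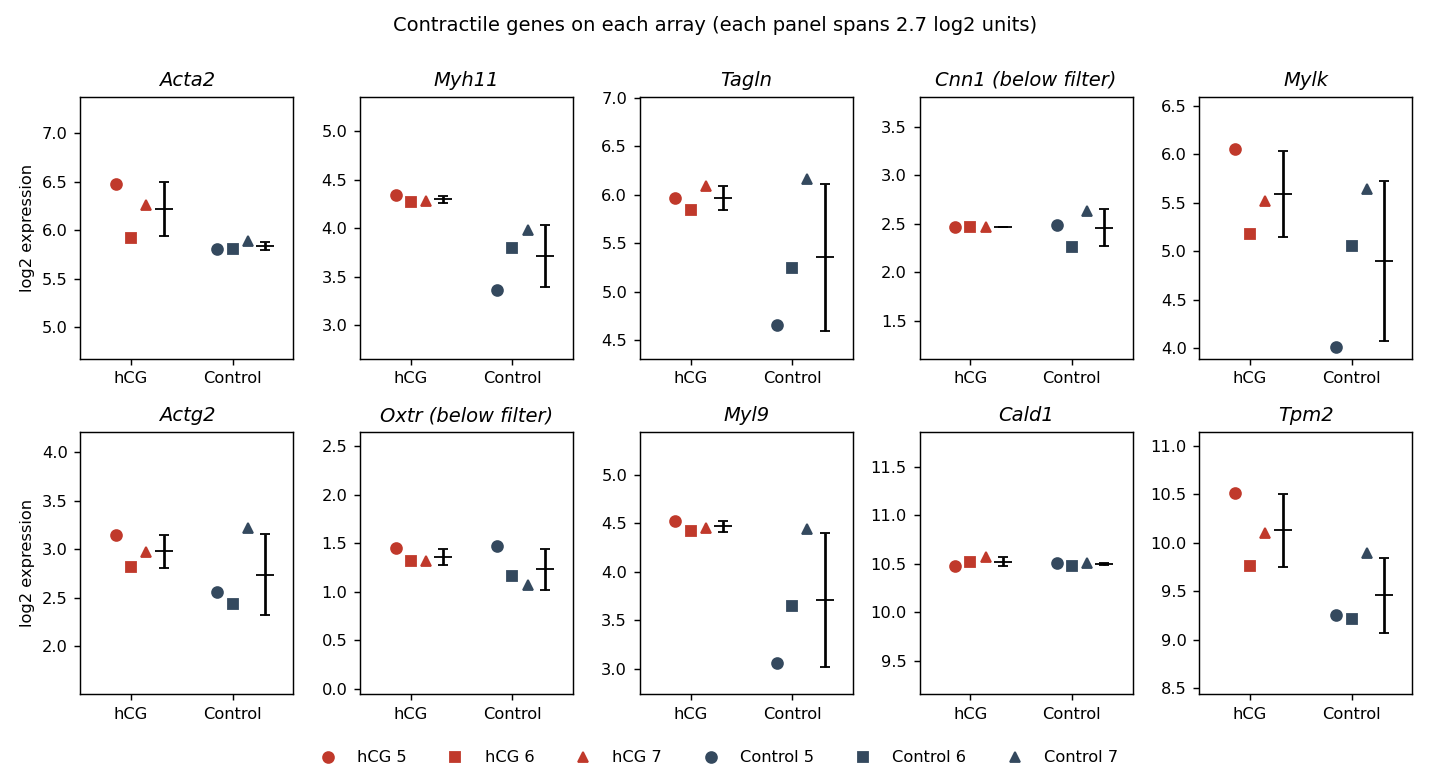
Log2 expression of each contractile gene's brightest probe set on each array, hCG in red and Control in dark blue, with the mean and SD of the 3 arrays beside the points in black. Panels have their own axes of equal length. The Control arrays of Tagln, Mylk and Myl9 spread widely with Control 5 lowest and Control 7 highest, while the hCG arrays of Myh11 and Myl9 sit close together.

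Of the actins, Acta2, which encodes the smooth muscle alpha actin used to stain myoepithelium, measured 6.48, 5.92 and 6.26 on hCG arrays 5, 6 and 7, against 5.81, 5.81 and 5.89 on Control arrays 5, 6 and 7 (log2 expression). Every hCG value was above every Control value, though hCG 6 exceeded the highest Control array only slightly. The mean was 6.22 ± 0.28 in hCG and 5.84 ± 0.04 in Control spheres (SD, n = 3 arrays each). Its log2 change was 0.38 (SE 0.14, 95% interval 0.05 to 0.72, 1.31-fold), with a limma adjusted p of 0.168. Actg2, the gamma actin of visceral smooth muscle, was dimmer, at 3.15, 2.82 and 2.97 on the hCG arrays and 2.56, 2.44 and 3.22 on the Control arrays. Its hCG values all lay inside the Control range. The log2 change of Actg2 was 0.24 (SE 0.21, 95% interval -0.26 to 0.74), with a limma adjusted p of 0.531.

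Among the myosin genes, Myh11, the smooth muscle heavy chain that generates force, measured 4.34, 4.27 and 4.29 on the hCG arrays and 3.37, 3.80 and 3.98 on the Control arrays. The groups did not overlap, and the hCG arrays were nearly alike while the Control arrays spread. The means were 4.30 ± 0.04 in hCG and 3.72 ± 0.32 in Control spheres (SD, n = 3 each), a log2 change of 0.58 (SE 0.16, 95% interval 0.21 to 0.95, 1.497-fold). Its limma adjusted p of 0.0978 was the smallest of the contractile genes. It was the 1 gene of the list under an adjusted p of 0.10, a threshold that passed 8.10% of all genes. A second Myh11 probe set, 1381219_at, was below the brightness filter, at 1.73, 1.59 and 1.61 in hCG and 1.79, 1.79 and 1.74 in Control spheres.

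Myl9, the regulatory light chain whose phosphorylation starts contraction, measured 4.53, 4.42 and 4.46 on the hCG arrays and 3.06, 3.65 and 4.44 on the Control arrays. Control 7 reached the level of the hCG arrays, and the other Control arrays were lower. The means were 4.47 ± 0.05 in hCG and 3.72 ± 0.69 in Control spheres (SD, n = 3 each). Myl9 had the largest log2 change of the list, 0.75 (SE 0.31, 95% interval 0.01 to 1.495, 1.69-fold), with a limma adjusted p of 0.202. Mylk, the calcium-activated kinase that phosphorylates this light chain, measured 6.06, 5.18 and 5.52 on the hCG arrays and 4.01, 5.06 and 5.64 on the Control arrays. It varied within both groups and the groups overlapped. Its log2 change was 0.68 (SE 0.42, 95% interval -0.31 to 1.67, 1.61-fold), with a limma adjusted p of 0.363. A second Mylk probe set, 1384818_at, was dim on all 6 arrays, with means of 1.34 in hCG and 1.39 in Control spheres.

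Of the actin-binding genes, Tagln (transgelin, an actin cross-linker of contractile cells) measured 5.97, 5.85 and 6.09 on the hCG arrays and 4.66, 5.25 and 6.16 on the Control arrays. As with Actg2, the hCG values lay inside the Control range, and Control 7 was the highest of all 6 arrays. The mean was 5.97 ± 0.12 in hCG and 5.35 ± 0.76 in Control spheres (SD, n = 3 each). The log2 change of Tagln was 0.61 (SE 0.34, 95% interval -0.20 to 1.43, 1.53-fold), with a limma adjusted p of 0.324.

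Tpm2, a tropomyosin that lies along the actin filament, was bright in both groups, at 10.51, 9.76 and 10.10 on the hCG arrays and 9.26, 9.21 and 9.90 on the Control arrays. The groups overlapped only through hCG 6, which was below Control 7. Its log2 change was 0.67 (SE 0.25, 95% interval 0.09 to 1.25, 1.59-fold), with a limma adjusted p of 0.165. The dim second probe set of Tpm2, 1392976_at, measured 2.21, 2.05 and 2.13 in hCG and 1.98, 1.72 and 1.91 in Control spheres, so there the groups did not overlap. It was below the filter, and in a fit without the filter its limma adjusted p was 0.234.

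Cald1, which encodes caldesmon, a brake on actin and myosin found in both muscle and non-muscle cells, was bright and nearly level. It measured 10.47, 10.52 and 10.56 on the hCG arrays and 10.50, 10.48 and 10.51 on the Control arrays, a log2 change of 0.02 (SE 0.07, 95% interval -0.15 to 0.20) with a limma adjusted p of 0.877. Its other tested probe set, 1368824_at, pointed the opposite way, at 9.18, 9.004 and 8.99 in hCG and 9.26, 9.39 and 9.36 in Control spheres. There the hCG arrays lay below the Control arrays, with a log2 change of -0.28 (SE 0.09, 95% interval -0.49 to -0.07) and a limma adjusted p of 0.139. The remaining Cald1 probe set, 1368823_at, was dim, with means of 1.41 in hCG and 1.36 in Control spheres.

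The other 2 genes of the list were below the filter level of 2.67 and were not tested with the rest. Cnn1 (calponin, a marker of differentiated contractile cells) was at 2.46 on all 3 hCG arrays and at 2.49, 2.25 and 2.63 on the Control arrays. Its 3 hCG values were identical to 6 decimals, which was so in 0.177% of probe sets. Oxtr, the receptor through which oxytocin triggers milk ejection, was at 1.45, 1.31 and 1.31 on the hCG arrays and 1.47, 1.16 and 1.07 on the Control arrays. With no filter, the limma adjusted p was 0.993 for Cnn1 and 0.604 for Oxtr.

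**Figure D2:**
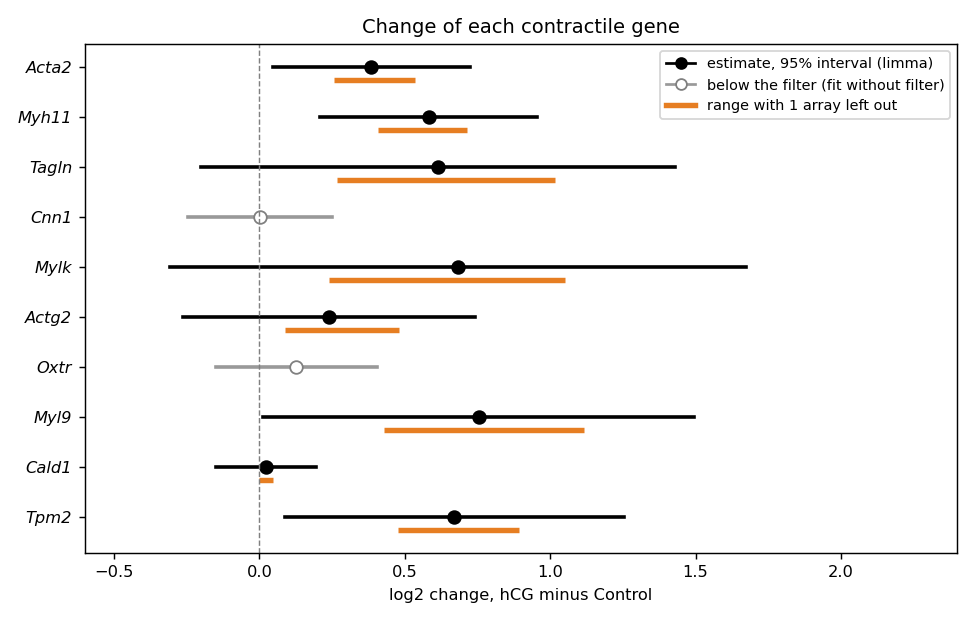
Log2 change (hCG minus Control) of each contractile gene, with its 95% interval from limma as a line and the range over fits that leave out 1 array as an orange bar. Open circles mark Cnn1 and Oxtr, which are below the filter. The intervals of Acta2, Myh11, Myl9 and Tpm2 lie above 0, while Cald1 sits at 0.02 with a narrow interval.

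The contractile genes varied along the same arrays. Control 7 was the highest Control array in 8 of the 8 tested genes, against 50.0% of all genes, and Control 5 the lowest in 4 of the 8 (Myh11, Tagln, Mylk and Myl9), against 33.2% of all genes. Within hCG, array 6 was the lowest in 7 of the 8 and array 5 the highest in 6 of the 8, against 38.4% and 38.8% of all genes. The Control SD was at least 3 times the hCG SD in Myh11, Tagln and Myl9, where 21.5% of all genes showed this. In Tagln the ratio was 6.18 and in Myl9 12.7. In Acta2 and Cald1 the hCG SD was the larger.

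Tagln and Myl9 had the most similar pattern within the list. Their deviations from their own mean differed by a root mean square of 0.11 (log2) over the 6 arrays, against 0.24 for the next closest pair, Acta2 and Myh11, and 0.64 for the farthest, Mylk and Cald1. Outside the list, the genes nearest to the mean pattern of the 8 contractile genes were Cmklr1 (0.06), Ttyh2 (0.06), Mical1 (0.06), Cmss1 (0.07), Ppp1r36 (0.08) and Arhgef7 (0.08), by the same measure. Ttyh2 measured 8.26, 8.01 and 8.22 on the hCG arrays and 7.29, 7.57 and 7.99 on the Control arrays. The nearest to Acta2 alone were Mipep (0.03), Snx24 (0.04) and Mtss1 (0.04). With 10424 genes and 6 arrays, such likeness is a description of these arrays.

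The lowest and highest changes with 1 array left out came without Control 5 and without Control 7 in 4 of the 8 genes, Myh11, Tagln, Mylk and Myl9. Without Control 7, limma called 3 of the 8 contractile genes higher in hCG, as it did 3.34% of all genes: Myh11 (0.72, adjusted p = 0.0475), Tagln (1.02, adjusted p = 0.0441) and Myl9 (1.12, adjusted p = 0.0375). Without Control 5, the array with the lowest Tagln, Mylk and Myl9, the log2 changes were 0.27 for Tagln, 0.24 for Mylk and 0.43 for Myl9, and limma called 0 genes of the whole table, with 1950 at an unadjusted p under 0.05. The log2 change of Acta2 ran from 0.26 without hCG 5 to 0.53 without hCG 6, that of Tpm2 from 0.48 without hCG 5 to 0.89 without Control 7, and that of Actg2 from 0.09 without Control 6 to 0.48 without Control 7. The median over the 8 genes ran from 0.32 without Control 5 to 0.80 without Control 7. When limma weighted the arrays by their quality, 5 of the 8 passed (Acta2, Myh11, Tagln, Myl9 and Tpm2, adjusted p from 0.0111 to 0.0337), all higher in hCG, as did 15.9% of all genes.

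Other genes of the contractile cytoskeleton of smooth muscle were measured from a list of 23. Of the 16 tested, 1 passed limma's adjusted test, and 13 had a log2 change above 0, with a median of 0.13. The 1 that passed was Svil, which encodes supervillin, a protein that ties myosin and actin to the membrane. Svil measured 6.54, 6.41 and 6.56 on the hCG arrays and 5.88, 5.86 and 5.89 on the Control arrays, a log2 change of 0.62 (SE 0.08, limma adjusted p = 0.0341). Its second probe set, 1395211_s_at, was dim and gave a log2 change of -0.00. Like every gene called here, Svil was not called when hCG 5, hCG 7, Control 5 or Control 6 was left out, where limma called 0 genes in all, with 1649, 1455, 1950 and 1931 at an unadjusted p under 0.05.

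Tpm1, the partner tropomyosin of Tpm2, measured 8.82, 8.41 and 8.60 on the hCG arrays and 7.65, 7.74 and 8.12 on the Control arrays. The log2 change of Tpm1 was 0.77 (SE 0.16, 1.71-fold) and its limma adjusted p 0.0580. All 5 tested probe sets of Tpm1 had the hCG arrays above the Control arrays, with log2 changes between 0.65 and 1.05. Adjusted over all 18625 tested probe sets, 3 of these 5 passed, at limma adjusted p of 0.0405, 0.0447 and 0.0447. The brightest, which stands for the gene, was not among them. Fermt2 (kindlin-2, which activates integrins at adhesion sites) had a log2 change of 0.40 (limma adjusted p = 0.0700). Its second tested probe set, 1384182_at, gave -0.01 with overlapping groups (limma adjusted p over all tested probe sets = 0.959). Vcl (vinculin, which anchors actin at such sites) had a log2 change of 0.26 (limma adjusted p = 0.180). The genes Lmod1, Kcnmb1, Synpo2, Ppp1r14a and Ppp1r12b, other components of the smooth muscle apparatus, were below the filter, at means from 1.55 to 2.50 in hCG and from 1.32 to 2.43 in Control spheres.

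The non-muscle paralogs, which serve migration and cell division in most cells, gave a median log2 change of 0.04 over 11 tested genes, and 0 of the 11 passed limma's adjusted test, with 3 at an unadjusted p under 0.05. Myh10, the non-muscle heavy chain IIB, measured 7.06, 7.11 and 7.14 on the hCG arrays and 6.65, 6.88 and 6.75 on the Control arrays (log2 change 0.34, SE 0.09, limma adjusted p = 0.0918). Myh9, the heavy chain IIA, had a log2 change of 0.59 with overlapping groups (limma adjusted p = 0.154). Myh14, the heavy chain IIC typical of epithelia, had a log2 change of -0.57 (limma adjusted p = 0.168). Tpm4 (0.16), Cnn3 (0.12) and the cytoplasmic gamma actin Actg1 (0.07) had smaller log2 changes, with limma adjusted p of 0.265, 0.350 and 0.591.

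Of serum response factor and its regulators, 0 of 11 tested genes passed limma's adjusted test, with 2 at an unadjusted p under 0.05, and the median log2 change was 0.03. Srf itself measured 7.21, 7.22 and 7.36 on the hCG arrays and 7.02, 7.14 and 7.27 on the Control arrays, a log2 change of 0.12 (SE 0.10, limma adjusted p = 0.501). A second tested Srf probe set, 1374829_at, gave -0.14 with overlapping groups (limma adjusted p over all tested probe sets = 0.438). The Srf coactivator Mrtfa had a log2 change of -0.11 (limma adjusted p = 0.605). Myocd, the myocardin of smooth and heart muscle, was below the filter, at a mean of 1.44 in hCG and 1.59 in Control spheres, and Mrtfb was not analysed here. Smad3, the signal carrier of transforming growth factor beta, had the smallest p of the list, with 8.10, 8.26 and 8.005 on the hCG arrays and 7.35, 7.52 and 7.87 on the Control arrays (log2 change 0.54, limma adjusted p = 0.0984). Tead1 and Klf5 had log2 changes of 0.20 and -0.43, with limma adjusted p of 0.205 and 0.270.

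In the calcium pathway below the oxytocin receptor, 1 of 15 tested genes passed and 10 had a log2 change below 0, with a median of -0.06. The 1 that passed was Camk2d, a calmodulin-dependent kinase, which was higher in hCG spheres. It measured 7.45, 7.43 and 7.43 on the hCG arrays and 7.01, 7.06 and 7.04 on the Control arrays (log2 change 0.40, SE 0.07, limma adjusted p = 0.0468). It lost this call without hCG 6 (adjusted p = 0.0706). Stim1 and Calm2 had log2 changes of -0.18 and -0.21, with limma adjusted p of 0.225 and 0.272.

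The levels of markers of other cells moved with the contractile genes on some arrays. The mean log2 level of the 8 contractile genes, set to 0 at the mean of the Control arrays, was 0.66, 0.32 and 0.51 on the hCG arrays and -0.37, -0.07 and 0.44 on the Control arrays. For 16 basal epithelial genes outside the contractile apparatus it was -0.04, 0.41 and 0.34 on the hCG arrays and -0.36, 0.12 and 0.24 on the Control arrays. The order of the hCG arrays thus differed: hCG 5 had the highest contractile and the lowest basal level. Of these 16 genes 11 had a log2 change above 0, with a median of 0.37, and 1 passed limma's adjusted test. That was Egfr, the receptor for EGF, with a log2 change of 0.68 (SE 0.11, limma adjusted p = 0.0439). A second Egfr probe set, 1370830_at, gave 0.18 with overlapping groups (limma adjusted p over all tested probe sets = 0.516). Itga6 and Mme, both surface markers of basal cells, had log2 changes of 0.88 and -0.78, with limma adjusted p of 0.125 and 0.138.

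Luminal markers, 10 genes, had levels of -0.34, -0.50 and -0.64 on the hCG arrays and -0.76, 0.17 and 0.59 on the Control arrays. Control 5 was thus lowest in contractile, basal and luminal levels alike. The same held for the levels of endothelial markers (-0.33), pericyte markers (-0.11) and non-muscle paralogs (-0.08), but not for fibroblast markers. Of the 10, 8 had a log2 change below 0, with a median of -0.43. The 1 luminal gene that passed was Cd24, a surface glycoprotein, which fell by a log2 change of -1.42 (limma adjusted p = 0.0289). Elf3 and Cldn7, the next by p, had log2 changes of -0.35 and -0.92, with limma adjusted p of 0.226 and 0.246.

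Cells outside the epithelium can also express contractile genes. For 8 pericyte and vascular smooth muscle markers of 11 listed, the level was 0.21, 0.37 and 0.40 on the hCG arrays and -0.11, -0.01 and 0.12 on the Control arrays, with the groups apart. Of the 8, 5 had a log2 change above 0 and 3 below, with a median of 0.13. The 1 that passed was Rgs5, which marks pericytes, at 3.14, 2.95 and 3.30 on the hCG arrays and 2.55, 2.43 and 2.43 on the Control arrays (log2 change 0.66, limma adjusted p = 0.0439). Its Control mean of 2.47 was below the filter level, so it entered the test through its hCG values. Mcam and Abcc9 had log2 changes of 1.39 and 1.03, with limma adjusted p of 0.0714 and 0.136. The Control mean of Abcc9 (2.59) was also below the filter level. A second tested Mcam probe set, 1369793_a_at, gave 0.88 with the groups apart (limma adjusted p over all tested probe sets = 0.0393). Its Control mean of 2.31 was below the filter level too. Des, Ndufa4l2 and Notch3 had log2 changes of -0.31, -0.23 and -0.17, with limma adjusted p of 0.505, 0.397 and 0.286. The pericyte markers Cspg4 and Kcnj8 were below the filter, at means of 2.64 and 2.31 in hCG and 2.45 and 2.21 in Control spheres.

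For 10 fibroblast markers the level was 0.37, 0.08 and 0.30 on the hCG arrays and 0.00, -0.04 and 0.03 on the Control arrays. Of the 10, 8 had a log2 change above 0, with a median of 0.33. Lum, a collagen-binding proteoglycan, rose by a log2 change of 1.13 (limma adjusted p = 0.0373). Dpt, a matrix protein of the dermis, changed by -0.99 (limma adjusted p = 0.0375). A second tested Dpt probe set, 1373947_at, gave -0.47 with overlapping groups (limma adjusted p over all tested probe sets = 0.298). Col3a1 had a change of 0.37 (limma adjusted p = 0.0617). On the hCG arrays the fibroblast level followed the same order as the contractile level, highest on hCG 5 and lowest on hCG 6. This order was not particular to fibroblast markers. The lists of other smooth muscle genes, non-muscle paralogs, and serum response factor and its regulators showed it too. On the Control arrays both were highest on Control 7, but the fibroblast level was lowest on Control 6 and the contractile level on Control 5.

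For 10 endothelial markers the level was 1.12, 1.16 and 1.07 on the hCG arrays and -0.33, -0.14 and 0.47 on the Control arrays. The log2 change was above 0 in all 10, with a median of 1.11. Control 7 was the highest Control array in 10 of the 10 endothelial and 8 of the 8 contractile genes, against 50.0% of all genes. The same held in 8 of the 10 luminal and 11 of the 16 basal genes. Among pericyte and fibroblast markers it held in 4 of the 8 and 4 of the 10. Sox17, Esam, Emcn and Erg passed limma's adjusted test and were higher in hCG spheres (Erg not without hCG 6, adjusted p = 0.0547). The Control mean of Sox17 was 2.23, below the filter level, so it entered the test through its hCG values. The part of pericytes, fibroblasts, endothelial cells and basal cells in the contractile values was not tested.

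**Figure D3:**
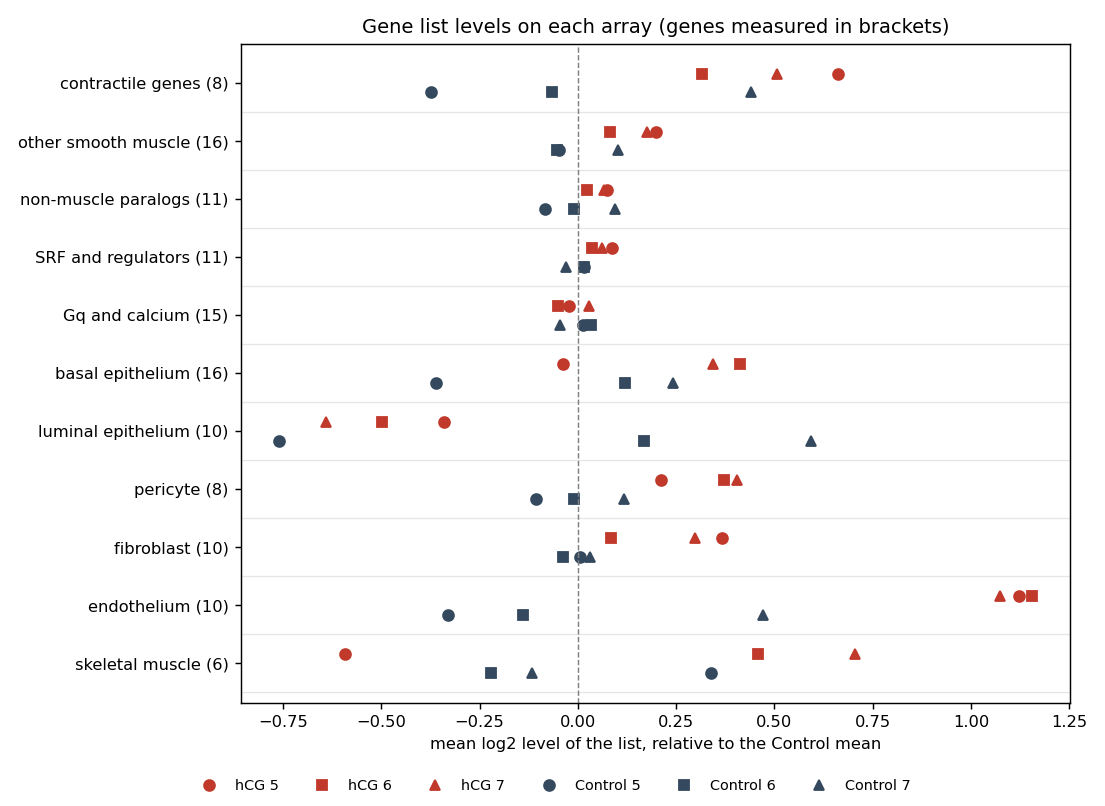
Mean log2 level of each gene list on each array, relative to the mean of the Control arrays, hCG in red and Control in dark blue, with the number of genes measured in brackets. Contractile levels run from 0.32 to 0.66 on the hCG arrays and from -0.37 to 0.44 on the Control arrays, while the endothelial levels of hCG arrays all exceed 1.

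A labelling measure also differed between the groups. The mean log2 signal of 12 probe sets for bacterial poly-A transcripts, spiked into the RNA before labelling, was 4.37, 5.02 and 4.45 on the hCG arrays and 5.59, 5.71 and 5.85 on the Control arrays. The difference of -1.10 had an exact two-sided permutation p of 0.1, the smallest that 3 arrays against 3 allow. The log2 difference between 3′ and 5′ Actb probe sets, a measure of RNA integrity, was 1.63 ± 0.11 in hCG and 1.76 ± 0.37 in Control spheres (SD, n = 3, exact permutation p = 0.8), and was highest on Control 7. For Gapdh the same difference was 0.05, 0.16 and 0.11 on the hCG arrays and 0.22, 0.11 and 0.67 on the Control arrays (exact permutation p = 0.3), again highest on Control 7. The spikes added at hybridisation differed by -0.21 (exact permutation p = 0.2). The part of labelling and RNA integrity in the contractile changes was not tested.

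The annotation assigns 5 further probe sets to both Acta2 and Actc1, the actin of heart muscle, and these were not counted with either gene. The brightest of them, 1370856_at, measured 4.84, 6.10 and 6.32 on the hCG arrays and 5.85, 5.35 and 5.00 on the Control arrays. Here hCG 5 was the lowest of the 6 arrays, whereas in the probe set of Acta2 alone it was the highest. Of 10424 genes, those nearest to 1370856_at by the root mean square of deviations were Sln (0.14), Tnnc2 (0.15), Ankrd1 (0.20), Myl4 (0.20) and Myl1 (0.21), genes of striated muscle, while Acta2 ranked 8517 (0.64) and Myh1, a skeletal myosin heavy chain, was as far (0.65). Acta1, the skeletal muscle actin, measured 3.77, 5.65 and 5.87 on the hCG arrays and 5.26, 4.11 and 4.22 on the Control arrays. Tnnc2, a skeletal troponin, measured 2.51, 3.92 and 4.27 on the hCG arrays and 3.61, 2.97 and 3.06 on the Control arrays. The 6 skeletal muscle markers above the filter had a mean level of -0.59, 0.46 and 0.71 on the hCG arrays and 0.34, -0.22 and -0.12 on the Control arrays. The smallest limma adjusted p among them was that of Myh1 (log2 change -0.27, adjusted p = 0.127). The other tested probe sets of Myh1 gave log2 changes from -0.28 to -0.05 (limma adjusted p over all tested probe sets from 0.243 to 0.909). With its probe sets averaged, Myh1 had a log2 change of -0.18 (limma adjusted p = 0.419). The probe sets shared by Acta2 and Actc1 were not alike in which genes they lay nearest to. The pattern of 1374352_at was nearer to Acta2 (0.36) than to Tnnc2 (0.39) or Acta1 (0.58). That of 1385797_at was nearer to Acta2 (0.32) than to Tnnc2 (0.47) or Acta1 (0.66). Both were nearer still to the skeletal muscle marker Tnni2 (0.23 and 0.27). The marker Tnnt3 was nearer than Acta2 to 1374352_at (0.29) but not to 1385797_at (0.34). Myl1 and Myh1 were farther than Acta2 from both.

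**Figure D4:**
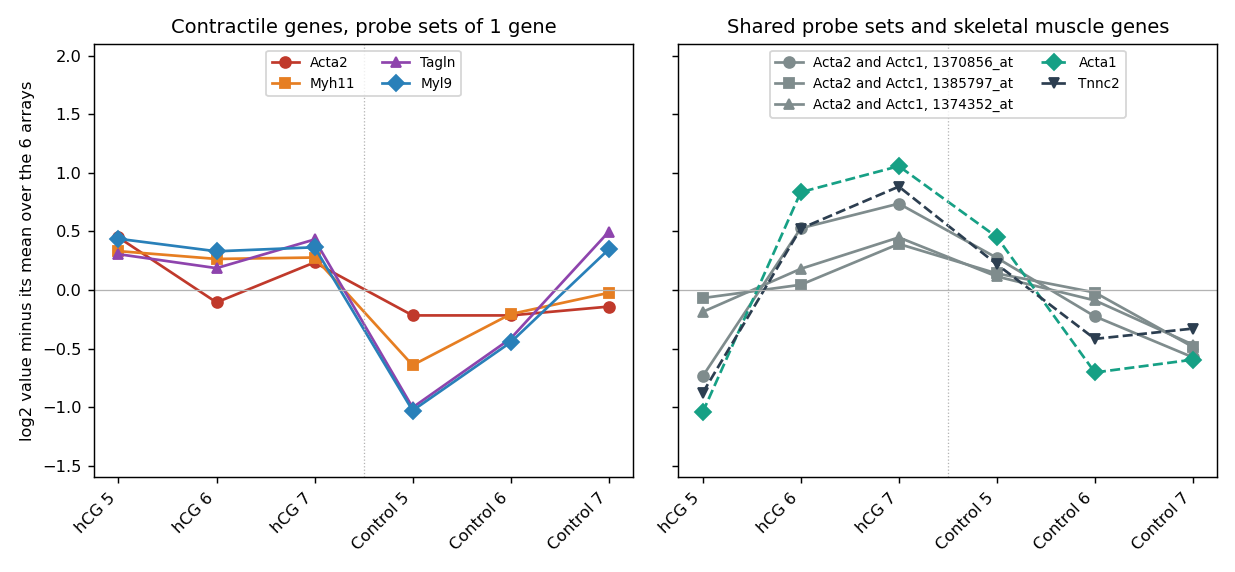
Log2 value of each probe set minus its mean over the 6 arrays, by array, with lines drawn only to guide the eye. The left panel shows Acta2, Myh11, Tagln and Myl9 from probe sets of 1 gene, and the right panel the 3 brightest probe sets shared by Acta2 and Actc1 with Acta1 and Tnnc2. On the left hCG 5 is at or near the top; on the right it is the lowest hCG array and hCG 7 the highest.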

How the data were processed

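RNA of 6 mammosphere samples was labelled with 2 rounds of amplification for Affymetrix 3′ arrays, per the labels' protocols. The authors deposited a table of 31099 probe sets by 6 arrays, without missing values. RMA, MAS5 and limma are listed, without version or role, per the submitters' processing notes. The deposited values were taken as log2, normalized between arrays: they ran from 0.74 to 13.1, with array medians from 3.44 to 3.48. No source used here states the log base, and such a scaling would hide a shift common to most genes.

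Genes were named from the platform annotation, where 20826 probe sets named 1 gene, 436 several and 9780 none. Symbols of 20758 were updated through a RefSeq table (GRCr8). The 57 control probe sets and the dimmest 40% of the others (mean under 2.67) were left out, which left 18625 probe sets and 10424 genes, each read from its brightest probe set. The hCG and Control groups, taken from the titles, were compared with limma 3.58.1 (lmFit, then eBayes) under R 4.3.3, two-sided, with 4 residual degrees of freedom before moderation. Benjamini-Hochberg adjustment ran over the 10424 genes, and a gene was called at an adjusted p under 0.05. The fit was tested on simulated data. The number of arrays limits the precision, and the labels name no batch.

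The 10 contractile genes and the 11 other gene lists were chosen with earlier results of these data known. The result of 1 of these lists is not reported here. All 10 are named with all their probe sets. From each other list the called genes and the 3 of smallest p are named, with up to 6 paralogs, Srf, Myocd, Mrtfa and Mrtfb, and the nearest genes by pattern. Genes below the filter, the pericyte markers Des, Ndufa4l2 and Notch3, and the genes near the shared probe sets were named after their values were seen. Alternatives were other filters and scalings, array weights, a block for the array number, eBayes with trend or robust, averaging the probe sets of a gene, leaving out each array in turn, and, chosen after seeing the data, adjustment over all tested probe sets.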

Additional observations from a re-analysis of the deposited data

How the results depend on the processing

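Of 10424 genes, limma called 190 with all arrays and 0 to 584 with 1 array left out, 118 with the array number as a replicate block, 2663 with array weights, 306 with a variance trend and 844 at an adjusted p under 0.10. Of the 8 contractile genes it called 0, and 0 to 3 with 1 array left out, 5 with array weights and 1 at an adjusted p under 0.10. Under the other alternatives, adjustment over all probe sets included, it called 159 to 267 genes and 0 contractile genes. Counts of 0 genes came without hCG 5, hCG 7, Control 5 or Control 6, where 1455 to 1950 genes had an unadjusted p under 0.05. The log2 change of Cald1 turned sign with cyclic loess (-0.035), the mean of its probe sets (-0.13) and probe set 1368824_at (-0.28), and with 1 array left out it ran from -1.05e-05 to 0.0456. Log2 changes also turned sign for Mrtfa with array weights (0.025), for Srf with the mean of its probe sets (-0.014) and for Tnnc2 with 1 array left out (-0.000504 to 0.88). The cause of these differences was not tested. Correlations of deviations between arrays of the same number were -0.16, 0.11 and 0.01, and those between unlike numbers ran from -0.22 to 0.20. With 3 arrays per group, these values cannot tell whether arrays of the same number share a source. With the replicate block Svil (limma adjusted p = 0.0589), Camk2d (0.109), Egfr (0.0805), Rgs5 (0.0707), Esam (0.0573) and Erg (0.0975) were not called. Averaging a gene's probe sets lost Svil (0.0683), Egfr (0.0842) and Dpt (0.081), cyclic loess lost Camk2d (0.0535), and the robust setting lost Erg (0.051). Calls were also gained. Averaging gained Tpm1 (limma adjusted p = 0.0319) and Mcam (0.0477), and the variance trend gained Tpm1 (0.0462), Fermt2 (0.0448) and Col3a1 (0.0312). Without Control 7, limma gained Tpm1 (0.0327), Smad3 (0.0371), Mcam (0.00222) and Col3a1 (0.0441). Array weights called all of these and further named genes. A planned pseudocount did not apply to log2 values.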

Other observations

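Contractile values are limited by 3 arrays per group. The 95% interval of the log2 change spanned 0 in Tagln, Mylk, Actg2 and Cald1, which leaves changes up to 1.43 for Tagln and 1.67 for Mylk within it. Cnn1, Oxtr and Myocd were below the filter, so the values given for them do not show whether their RNA changed.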
